A study of Homo sapiens with 18 samples.

Results

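The variation between biological replicates that carried the same group labels was described in NB4 cells, an established human acute promyelocytic leukaemia line. For this, 8 of the 18 microarrays of the study were set against each other. These were the 4 ATRA arrays titled replicate 2 and the 4 ATRA arrays titled replicate 3, and each replicate 2 array was paired with the replicate 3 array of the same genotype and time. The 8 arrays were chosen from measured values, because arrays of the same number deviated together from their group means, so a difference between replicates 2 and 3 under ATRA is given as a description and without a test. That choice favoured genes with 1 direction in all 4 pairs.

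The study had 6 groups of 3 arrays. Wild-type NB4 cells and cells labelled TG2 knockout (TG2 is transglutaminase 2, the product of TGM2) were left untreated or exposed for 48 h or 72 h to ATRA (all-trans retinoic acid, 1 µM). All groups shared the same parental line, medium with fetal bovine serum, glutamine and antibiotics, and labelling kit. The labels call the arrays biological replicates but do not say whether a shared number marks a shared culture, day, serum lot or labelling run, nor how the knockout was made or whether it is 1 clone. The short sample codes of the knockout arrays carry the letters KD.

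NB4 cells carry the PML-RARA fusion, and ATRA releases its block on transcription so that the cells stop dividing and take on neutrophil features. Amino acid shortage and other stresses act through the transcription factor ATF4, which raises asparagine synthetase, amino acid transporters, enzymes of serine synthesis and tRNA synthetases. Type I interferon acts through its receptor and the factor ISGF3 on a separate set of genes, among them the IFIT and OAS genes, and part of that set is induced when NB4 cells differentiate.

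The leading gene group of the comparison was the ATF4-type group, and the promoter stretches that follow are shown because they hold the letters TGATGNAA, the core of the C/EBP-ATF response element through which ATF4 acts. The 250 bases before each start in RefSeq (GRCh38.p14) were searched on both strands, and capitals mark the match (read as TTNCATCA where it lies on the other strand). The element was in 7 of the 42 promoters listed for 28 of the 34 genes of the group, 16.7%, and in 3.14% of all 35116 promoters. Of the 7 genes with a match, 6 were lower in replicate 2 than in replicate 3 in all 4 pairs, and CHAC1 was not. In the whole group 29 of 34 genes were lower in all 4 pairs, a similar share. A match is a description of the letters, and genes without one, such as SLC7A11, are not described by it. The stretch of ASNS (asparagine synthetase) runs from 93 to 36 bases before its start at chr7:97872444-97872501 (minus strand), that of CEBPG (a C/EBP partner of ATF4) lies at chr19:33374046-33374103 (plus strand), that of AARS1 (alanyl-tRNA synthetase) at chr16:70289661-70289718 (minus strand), that of GARS1 (glycyl-tRNA synthetase) at chr7:30594820-30594877 (plus strand), that of ATF3 (a stress-induced repressor) at chr1:212565191-212565248 (plus strand) and that of CHAC1 (a glutathione-degrading enzyme) at chr15:40953237-40953294 (plus strand).
ASNS: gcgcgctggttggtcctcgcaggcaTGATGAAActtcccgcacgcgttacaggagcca
CEBPG: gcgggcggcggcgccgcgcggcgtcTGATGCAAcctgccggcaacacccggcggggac
AARS1: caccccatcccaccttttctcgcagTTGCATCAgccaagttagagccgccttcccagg
GARS1: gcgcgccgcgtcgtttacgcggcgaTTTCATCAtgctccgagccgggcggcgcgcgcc
ATF3: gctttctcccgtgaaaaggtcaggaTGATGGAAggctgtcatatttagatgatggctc
CHAC1: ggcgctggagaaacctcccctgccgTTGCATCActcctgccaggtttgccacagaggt

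Beside them stand 3 promoter stretches of interferon-stimulated genes, shown because that list had the next lowest median in replicate 2 among the 38 lists. Capitals mark matches, on either strand, to the core of the interferon-stimulated response element, through which ISGF3 acts. The element was in 24 of the 41 promoters listed for 29 of the 38 genes, 58.5%, against 3.02% of all promoters. For PLSCR1, IFI27 and IFI44 the same match was counted from more than 1 start. Here and for the amino acid genes a larger share was favoured by how the lists were made up. It is not a result of these arrays. Of the 20 genes with a match, 9 were lower in all 4 pairs, 1 was higher and 10 had mixed signs. In the whole list 21 of 38 genes were lower and 1 higher, so genes with a match were not more often lower. IFIT1 and IFIT5 encode RNA-binding antiviral proteins and DDX60 a helicase, and their stretches lie at chr10:89392482-89392554 (plus strand), chr10:89414498-89414567 (plus strand) and chr4:168318771-168318865 (minus strand).
IFIT1: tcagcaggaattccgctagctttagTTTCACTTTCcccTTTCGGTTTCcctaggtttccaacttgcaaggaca
IFIT5: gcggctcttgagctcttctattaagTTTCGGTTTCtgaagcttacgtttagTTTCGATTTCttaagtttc
DDX60: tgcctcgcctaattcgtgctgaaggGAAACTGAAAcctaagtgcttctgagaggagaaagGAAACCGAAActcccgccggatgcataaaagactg

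The chosen replicate 2 and 3 arrays differed far more under ATRA than the untreated arrays of the same numbers. The ATRA arrays were chosen from their values and the untreated ones were not, so the choice favoured this contrast. Deposited values are on a log2 scale, so a difference of 1 is 2-fold. The SD of replicate 2 minus replicate 3 over the 33297 probe sets was 0.517 in wild-type cells at 48 h, 0.582 in TG2 knockout cells at 48 h, 0.509 in wild-type cells at 72 h and 0.501 in TG2 knockout cells at 72 h. In untreated cells it was 0.190 for wild-type and 0.226 for TG2 knockout. At least 2-fold differences were found at 5.04% to 8.15% of probe sets in the ATRA pairs and at 0.276% and 0.493% in the untreated pairs.

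Array medians lay between 6.12 and 6.26 in all 18 arrays. TGM2 (probe set 8066214) was at 6.4, 6.27 and 6.61 in the untreated wild-type arrays of replicates 1, 2 and 3 and at 6.3, 6.51 and 6.36 in the untreated TG2 knockout arrays. Under ATRA it was at 12.34, 12.06 and 12.4 in wild-type arrays at 48 h and at 12.54, 12.19 and 12.39 at 72 h. In the arrays labelled TG2 knockout it was at 11.01, 10.56 and 11.29 at 48 h and at 11.61, 10.87 and 11.25 at 72 h, so the probe set was lower with the label and still far above untreated cells. How much of the transcript, or which part of it, the cells labelled TG2 knockout keep is not given in the sources used here. Within the pairs TGM2 was lower in replicate 2 by 0.34, 0.73, 0.2 and 0.38, a mean difference of -0.41 ± 0.23 (SD, n = 4 pairs). Here and below, 4 values in a row are in the order wild-type 48 h, TG2 knockout 48 h, wild-type 72 h and TG2 knockout 72 h.

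**Figure D1:**
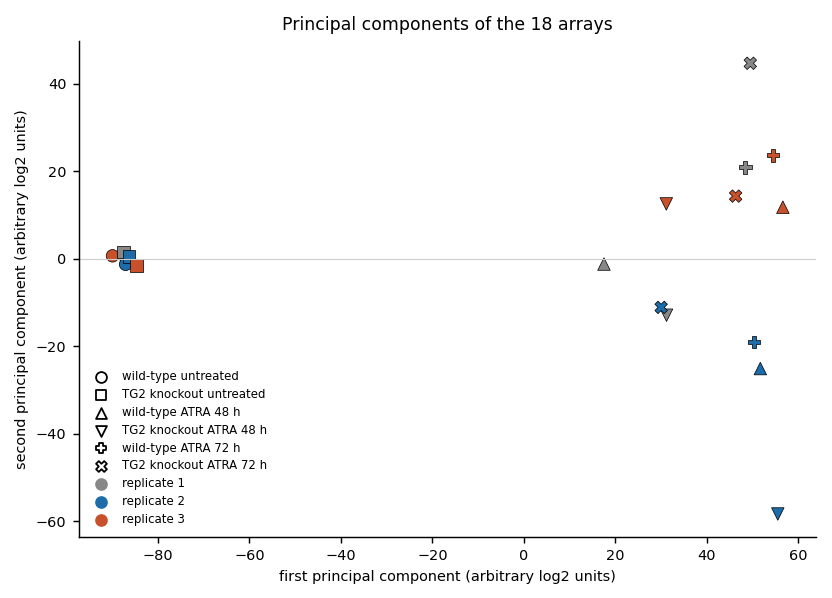
The first and second principal components of the 18 arrays over all probe sets, with marker shape for group and colour for replicate. The 4 replicate 2 ATRA arrays lie between -58.4 and -11.1 on the second component and the 4 replicate 3 ATRA arrays between 11.8 and 23.6, while all 6 untreated arrays lie between -1.59 and 1.51.

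The second principal component, which held 6.68% of the variance, held replicates 2 and 3 apart under ATRA, as the choice of arrays would have it. The replicate 1 ATRA arrays, at -1.20, -12.9, 20.9 and 44.7, reached into both ranges. The 4 pairs of differences were weakly correlated with each other over probe sets: Pearson's r was between 0.0369, for the TG2 knockout pairs at 48 h and 72 h, and 0.183, for the wild-type pairs at 48 h and 72 h. Between an ATRA pair and an untreated pair r was between -0.0496 and 0.0561. These values are descriptions over 33297 probe sets, which share arrays and normalization and are not independent. The TG2 knockout replicate 2 array at 48 h stood farthest out, at -58.4, against -25.1 for the next, and a mean or median is also given without a pair where leaving out that pair moved it by over 1.5 times, or where that pair stood apart.

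Among 18417 genes read by a single-gene probe set, 1858 (10.1%) were higher in replicate 2 in all 4 pairs and 2548 (13.8%) were lower in all 4. At least 2-fold on average and of 1 sign were 19 genes (0.103%) higher in replicate 2 and 103 genes (0.559%) lower. limma with the group as a block called 267 of 33297 probe sets (0.802%) at an adjusted p under 0.05, of which 99 were higher and 168 lower. Without the wild-type pair at 48 h it called 11, without the wild-type pair at 72 h 2, and without the TG2 knockout pair at 72 h 41. Since the arrays were chosen on this contrast, nothing is read from these calls.

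**Figure D2:**
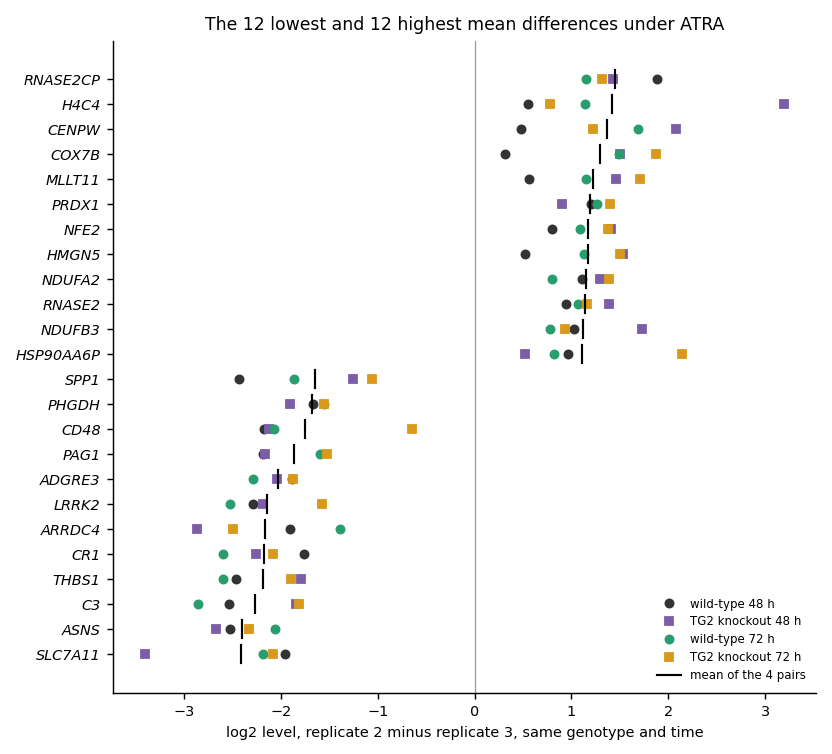
Differences in log2 level, replicate 2 minus replicate 3, for the 12 genes with the lowest and the 12 with the highest mean among genes with 1 sign in all 4 pairs; each point is 1 pair and the bar is the mean. ASNS and SLC7A11 lie lowest, at -2.40 and -2.41, and H4C4 shows the widest spread, from 0.55 to 3.20.

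Asparagine synthetase and the cystine transporter SLC7A11 had the lowest mean differences among named genes of 1 sign in all 4 pairs. ASNS was at 7.12, 7.41, 7.47 and 7.66 in the replicate 2 arrays and at 9.65, 10.08, 9.53 and 9.99 in the replicate 3 arrays, with 7.71 ± 0.07 (SD, n = 6) in untreated cells. The highest replicate 2 array was thus below the lowest replicate 3 array, and the groups did not overlap. Genes were named for large differences of 1 sign or after their values were seen. A lack of overlap, here and below, was favoured by that choice, and its share over all genes was not counted. Replicate 2 lay at or under the untreated level while replicate 3 lay above it. The mean difference was -2.40 ± 0.26 (SD, n = 4 pairs), or 5.27-fold.

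SLC7A11, which brings in cystine for glutathione, was at 6.38, 5.62, 6.17 and 6.72 in replicate 2 and at 8.34, 9.02, 8.36 and 8.80 in replicate 3. Untreated cells held 9.10 ± 0.02 (SD, n = 6). For this gene the replicate 3 arrays were nearer to untreated cells and the replicate 2 arrays were the ones that lay far below, with a mean difference of -2.41 ± 0.67 (SD, n = 4 pairs). Without the TG2 knockout pair at 48 h it was -2.08.

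The list of amino acid stress genes and tRNA synthetases held 29 of 34 genes that were lower in replicate 2 in all 4 pairs, 1 that was higher and 4 of mixed sign, against 13.8% and 10.1% of all genes. Every later count of genes lower or higher in all 4 pairs has the same shares of all genes beside it, 13.8% lower and 10.1% higher. Its median difference was -0.67, with pair medians of -0.65, -0.99, -0.56 and -0.55, and the median over all genes was -0.01. Without the TG2 knockout pair at 48 h the list median was -0.55. The exceptions were NUPR1, a stress-induced chromatin protein, which was higher by 0.39 ± 0.39 (SD, n = 4 pairs; 0.21 without the TG2 knockout pair at 48 h), and DDIT4, STC2, PSPH and CHAC1, whose signs were mixed.

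Signalling members of the ATF4 group were lower in replicate 2. DDIT3, the stress-induced factor CHOP, was at 7.57, 7.21, 6.79 and 7.24 in replicate 2 and at 8.77, 9.04, 8.58 and 8.73 in replicate 3, around an untreated level of 7.44 ± 0.13 (SD, n = 6). The 4 values of each replicate did not overlap, and the replicate 2 values lay around the untreated level. TRIB3, a pseudokinase that feeds back on ATF4, differed by -1.18 ± 0.26 and SESN2, a leucine sensor upstream of mTORC1, by -1.33 ± 0.29 (SD, n = 4 pairs). ATF4 itself, which is controlled largely at translation, differed by -0.36 ± 0.17.

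Enzymes of serine and one-carbon metabolism followed. PHGDH, the first enzyme of serine synthesis, was at 8.03, 8.23, 7.93 and 8.51 in replicate 2 and at 9.70, 10.14, 9.49 and 10.07 in replicate 3, with 9.28 ± 0.06 (SD, n = 6) in untreated cells. So replicate 2 lay below and replicate 3 above the untreated level. PSAT1, the next enzyme, differed by -1.12 ± 0.48, the mitochondrial enzymes MTHFD2 by -0.90 ± 0.32 and SHMT2 by -0.68 ± 0.22 (SD, n = 4 pairs). PSPH, the last step of serine synthesis, differed by -0.10 ± 0.26, with mixed signs.

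Amino acid carriers as a family were more often of mixed sign. Of 32 SLC1, SLC7, SLC36, SLC38 and SLC43 family members and SLC3A2, a family chosen after its values were seen, 12 were lower in replicate 2 in all 4 pairs and 3 were higher, with a median of -0.09 that turned to 0.0217 without the wild-type pair at 48 h. The low members besides SLC7A11 were led by SLC1A4, a carrier of neutral amino acids, at -1.17 ± 0.49, and by both chains of the leucine carrier, SLC7A5 at -1.04 ± 0.32 and SLC3A2 at -0.91 ± 0.25 (SD, n = 4 pairs). Of 19 cytosolic tRNA synthetase genes, chosen in the same way, 12 were lower in all 4 pairs and 2 higher. CARS1 (-1.16 ± 0.20), WARS1 (-0.92 ± 0.27) and AARS1 (-0.79 ± 0.24) were lowest, whereas HARS1, the histidyl enzyme, was higher by 0.37 ± 0.13 (SD, n = 4 pairs).

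**Figure D3:**
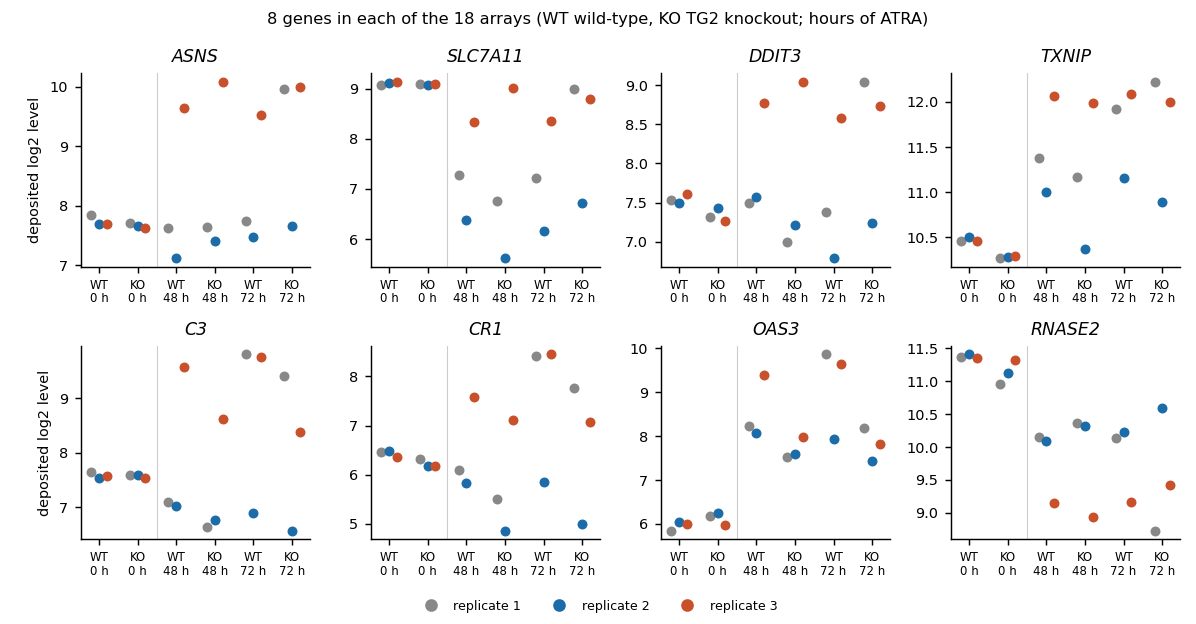
Deposited log2 levels of 8 genes in all 18 arrays, 1 point an array, by group and coloured by replicate. In the ATRA groups the replicate 2 and replicate 3 points of ASNS, SLC7A11, DDIT3, TXNIP, C3, CR1 and RNASE2 do not overlap, while those of OAS3 do, at 7.44 to 8.07 and 7.81 to 9.65. The genes without overlap had been named for large differences of 1 sign, which favoured it.

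Arrestin-domain genes that respond to glucose metabolites through MondoA and MLX were also lower in replicate 2. ARRDC4 was at 6.57, 6.35, 6.90 and 6.82 in replicate 2 and at 8.48, 9.22, 8.29 and 9.31 in replicate 3, and TXNIP, a brake on glucose uptake, was at 11, 10.37, 11.16 and 10.89 against 12.07, 11.99, 12.09 and 12. Neither gene overlapped between the replicates. TXNIP in untreated cells was at 10.38 ± 0.11 (SD, n = 6), so the replicate 2 arrays were between untreated cells and replicate 3 or at the untreated level. The family of 5 was chosen after its values were seen, and ARRDC3 differed by -1.33 ± 0.70 and ARRDC1 by 0.11 ± 0.07 (SD, n = 4 pairs).

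Genes of glycolysis and hypoxia were lower in replicate 2 in all 4 pairs for 10 of 29 members and higher for 2. Their pair medians were -0.20, -0.44, 0.03 and 0.14, so the list median of -0.10 was set by the 48 h pairs. VEGFA, the angiogenic factor, was the lowest at -0.87 ± 0.40, followed by PDK1, the kinase that closes pyruvate dehydrogenase, at -0.81 ± 0.61 (SD, n = 4 pairs). Without the TG2 knockout pair at 48 h the mean of PDK1 was -0.52. Without the TG2 knockout pair at 72 h the list median was -0.21.

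A further set of low genes belonged to complement and to receptors of differentiated neutrophils. C3, the central complement protein, was at 7.02, 6.77, 6.89 and 6.57 in replicate 2 and at 9.56, 8.61, 9.75 and 8.38 in replicate 3. CR1, the receptor of C3b, was at 5.83, 4.86, 5.85 and 4.99 against 7.59, 7.12, 8.45 and 7.07. In both genes all replicate 2 arrays were below untreated cells (7.58 ± 0.04 and 6.33 ± 0.13, SD, n = 6) and all replicate 3 arrays above them. The mean differences were -2.26 ± 0.52 and -2.17 ± 0.35 (SD, n = 4 pairs), or 4.8-fold and 4.52-fold.

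Of 14 complement genes and receptors, again chosen after their values were seen, 6 were lower in all 4 pairs and 0 higher, with a median of -0.44. CD55, which protects cells from complement, differed by -1.08 ± 0.27 and C5AR1, the receptor of the C5a attractant, by -1.16 ± 0.66 (SD, n = 4 pairs). The adhesion receptor ADGRE3 was at 7.79, 6.82, 7.49 and 6.77 in replicate 2 and at 9.68, 8.86, 9.78 and 8.65 in replicate 3. Untreated cells held 5.30 ± 0.12 (SD, n = 6), so this gene was above untreated cells in both replicates and about 2 log2 units higher in replicate 3. FFAR2 and FFAR3, receptors of short-chain fatty acids that neutrophils carry, differed by -1.35 ± 0.36 and -1.46 ± 0.17 (SD, n = 4 pairs).

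THBS1, the matrix protein thrombospondin 1, and SPP1, the secreted protein osteopontin, were lower in replicate 2 by 2.19 ± 0.40 and 1.65 ± 0.62 (SD, n = 4 pairs). LRRK2, a kinase of endolysosomal membranes, differed by -2.15 ± 0.40, the signalling adaptor PAG1 by -1.87 ± 0.36 and the surface protein CD48 by -1.75 ± 0.74. For CD48 the TG2 knockout pair at 72 h, 7.53 against 8.18, was the smallest difference. VIM (vimentin) differed by -1.38 ± 0.42 and S100A8, a subunit of calprotectin, by -1.05 ± 0.50 (SD, n = 4 pairs). THBS1, SPP1, VIM and S100A8 had the largest differences of 1 sign in the list of integrin adhesion and actin genes. Of its 33 genes 11 were lower, 6 higher and 16 of mixed sign. The list median was -0.025, and from -0.08 to -0.0033 with 1 pair left out.

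The neutrophil receptor list held 11 of 25 genes lower in replicate 2 in all 4 pairs and 1 higher, with a median of -0.41. FCAR, the IgA receptor, differed by -1.20 ± 0.42, and FCGR2A, an IgG receptor, by -1.02 ± 0.56 (SD, n = 4 pairs). Of 6 measured NADPH oxidase genes 3 were lower and 0 higher. CYBB, the catalytic subunit, was at 11.65, 10.61, 11.75 and 11.44 in replicate 2 and at 12.34, 12.13, 12.35 and 12.05 in replicate 3, so the groups did not overlap. Untreated cells held 10.66 ± 0.13 (SD, n = 6).

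Retinoid targets were lower in replicate 2 in 11 of 25 cases and higher in 1, with a median of -0.23. ASB2, a ubiquitin ligase subunit induced by ATRA in these cells, was at 8.19, 7.54, 8.25 and 7.68 in replicate 2 and at 9.38, 8.54, 9.28 and 8.66 in replicate 3, against 5.57 ± 0.09 (SD, n = 6) in untreated cells. Both replicates were far above untreated cells, and the pairs differed by -1.05 ± 0.10 (SD, n = 4 pairs). RARB, a direct receptor target, differed by -0.69 ± 0.37. TRIB3 stands in this list as well as in the amino acid list.

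Granule genes were divided. Of 14 azurophil granule genes 6 were higher in replicate 2 in all 4 pairs and 3 lower: BPI, a bactericidal protein, differed by -0.97 ± 0.36 and SERPINB1, an elastase inhibitor, by -0.82 ± 0.39, whereas DEFA4, a defensin, was higher by 0.53 ± 0.35 (SD, n = 4 pairs). RNASE2, the eosinophil-derived neurotoxin, was at 10.09, 10.32, 10.23 and 10.59 in replicate 2 and at 9.15, 8.93, 9.16 and 9.43 in replicate 3, with 11.26 ± 0.18 (SD, n = 6) in untreated cells. Replicate 2 was thus nearer to untreated cells, by 1.14 ± 0.19 (SD, n = 4 pairs). Among named genes of 1 sign the highest mean, 1.45 ± 0.31, was that of its pseudogene RNASE2CP, and the array may not keep the 2 near-identical sequences apart. Of 19 genes of specific and gelatinase granules 2 were lower and 2 higher, near the shares of all genes (13.8% lower and 10.1% higher).

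Interferon-stimulated genes were lower in replicate 2 in all 4 pairs for 21 of 38 members and higher for 1, BST2, with a median of -0.56. The pair medians were -0.69, -0.29, -0.98 and -0.17, so the wild-type pairs differed more than the TG2 knockout pairs. The medians over the 2 wild-type and the 2 TG2 knockout pairs were -0.79 and -0.24, and that difference between lists was not tested.

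IFIT2 was the lowest member at 6, 4.98, 5.45 and 5.48 in replicate 2 and 7.33, 6.21, 7.44 and 6.09 in replicate 3, with 4.94 ± 0.17 (SD, n = 6) in untreated cells. All replicate 3 arrays were above all replicate 2 arrays. IFIT5, DDX60 and SAMD9L differed by -1.20 ± 0.45, -1.16 ± 0.37 and -1.14 ± 0.58 (SD, n = 4 pairs). ISG15, the ubiquitin-like modifier, and MX1, the antiviral GTPase, had mixed signs, at -0.00 ± 0.38 and -0.17 ± 0.27.

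The genes of interferons themselves had mixed signs: of 7 measured ligands 0 were higher and 0 lower in all 4 pairs. Of 16 receptor and signalling genes 9 were lower and 0 higher. JAK2, IRF9 and the receptor chains IFNGR1 and IFNAR1 led at -0.72 ± 0.26, -0.69 ± 0.28, -0.69 ± 0.46 and -0.57 ± 0.50 (SD, n = 4 pairs). Without the TG2 knockout pair at 48 h the mean of IFNAR1 was -0.34. IRF1, itself a retinoid-induced factor, was at 9.54, 9.38, 9.58 and 9.51 in replicate 2 and 9.64, 9.39, 9.46 and 9.47 in replicate 3, and thus overlapped. RIGI, the RNA sensor, differed by -1.08 ± 0.47 (SD, n = 4 pairs) in a list of 19 sensing genes of which 6 were lower and 1 higher.

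NF-kB targets were lower in 12 of 22 cases and higher in 0, with a median of -0.47. TNFAIP3, the ubiquitin-editing inhibitor of the pathway, was at 6.96, 6.40, 7.25 and 7.16 in replicate 2 and 8.65, 7.79, 8.64 and 7.71 in replicate 3. The values did not overlap. ICAM1 (-1.16 ± 0.25), CXCL8 (-1.05 ± 0.47) and IL1B (-1.03 ± 0.90, SD, n = 4 pairs) followed, and for IL1B the TG2 knockout pairs were close to each other at 5.56 against 5.73 and 5.67 against 6.01. CXCL10, a chemokine induced by interferon, differed by -1.38 ± 0.43. It stands in the list of chemokines and cytokines, of which 9 of 32 were lower, 4 higher and 19 of mixed sign. CXCL10 is also in the list of class I presentation and interferon-gamma genes. There 6 of 21 were lower, 2 higher and 13 of mixed sign. Of 27 immediate early genes 7 were lower and 1 higher, led by KLF10 at -1.44 ± 0.19.

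**Figure D4:**
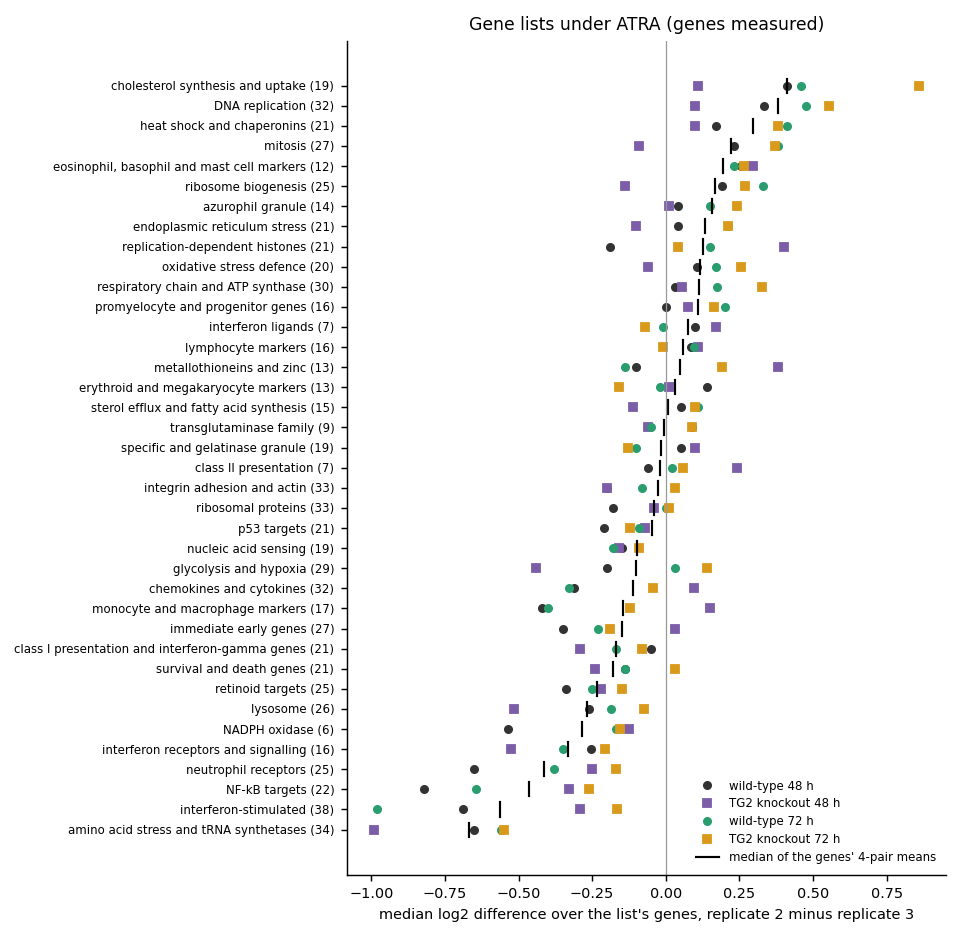
Median difference in log2 level, replicate 2 minus replicate 3, of each of 38 gene lists in each of the 4 pairs, with the number of genes measured; the bar is the median of the genes' means over the pairs. The amino acid list has the lowest median, -0.67, and cholesterol synthesis and uptake the highest, 0.41.

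Lists with more members higher than lower in replicate 2 included DNA replication, cholesterol synthesis and chaperones. Of 32 DNA replication genes 18 were higher in all 4 pairs and 0 lower, with a median of 0.38 and pair medians of 0.34, 0.10, 0.47 and 0.56. UHRF1, which keeps DNA methylation through replication, was at 9.67, 9.77, 9.75 and 9.38 in replicate 2 and at 9.26, 8.68, 8.87 and 8.50 in replicate 3, with 10.10 ± 0.08 (SD, n = 6) in untreated cells. All 8 arrays were below untreated cells, and the replicate 2 arrays were nearer to them. GINS2, FEN1 and ORC1, of the replication fork and origin, were higher by 0.76 ± 0.29, 0.76 ± 0.15 and 0.75 ± 0.31 (SD, n = 4 pairs).

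Of 27 mitosis genes 9 were higher and 0 lower, with pair medians of 0.23, -0.09, 0.38 and 0.37, and the kinesin KIF20A led at 0.73 ± 0.25 (SD, n = 4 pairs). CENPW, a kinetochore protein, was higher by 1.37 ± 0.69. H4C4, a histone H4 gene, was higher by 1.42 ± 1.21, which rested on 1 array: the TG2 knockout replicate 2 array at 48 h held 11.25 and the other 3 replicate 2 arrays 8.72 to 9.07. Without that pair its mean was 0.82. Of 21 replication-dependent histone genes 5 were higher and 2 lower.

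Of 19 genes of cholesterol synthesis and uptake 11 were higher in all 4 pairs and 1 lower, with a median of 0.41. HMGCS1, an early enzyme of the pathway, was at 10.00, 9.59, 10.34 and 10.70 in replicate 2 and at 9.41, 9.15, 9.35 and 9.01 in replicate 3, with 9.81 ± 0.09 (SD, n = 6) in untreated cells. The replicate 2 values were all above the replicate 3 values, and the TG2 knockout pair at 72 h was the farthest apart. LSS, ACAT2 and INSIG1 were higher by 0.82 ± 0.31, 0.75 ± 0.49 and 0.69 ± 0.41 (SD, n = 4 pairs). Fatty acid synthase, FASN, was higher by 1.00 ± 0.10 and the elongase ELOVL6 by 1.02 ± 0.37, whereas ABCA1, the sterol exporter, was lower by 0.94 ± 0.26. FASN, ELOVL6 and ABCA1 stand in a separate list of sterol efflux and fatty acid synthesis. Of its 15 genes 3 were higher, 2 lower and 10 of mixed sign. That list had a median of 0.0075, and from -0.0333 to 0.1 with 1 pair left out.

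Chaperones were higher in 11 of 21 cases and lower in 1, led by DNAJA1 at 0.91 ± 0.31 and HSPH1 at 0.80 ± 0.25 (SD, n = 4 pairs). In the endoplasmic reticulum list 6 of 21 genes were higher and 3 lower. The secreted factor MANF was higher by 0.79 ± 0.27, and HERPUD1, of protein degradation, was lower by 0.86 ± 0.22. The peroxidase PRDX1 was at 10.00, 9.99, 10.01 and 10.28 in replicate 2 and 8.80, 9.09, 8.75 and 8.88 in replicate 3, with no overlap, and SOD1 was higher by 0.68 ± 0.14 (SD, n = 4 pairs). In the list of oxidative defence, which holds SLC7A11 too, 5 of 20 were higher and 2 lower.

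Small nuclear-encoded subunits of the respiratory chain were among the highest. COX7B, of complex IV, was higher by 1.29 ± 0.68, and NDUFA2 and NDUFB3, of complex I, by 1.15 ± 0.26 and 1.12 ± 0.42 (SD, n = 4 pairs). In the list of 30 respiratory chain and ATP synthase genes 8 were higher and 0 lower. Among 33 complex I subunits, a family chosen after its values were seen, 15 were higher and 0 lower, with a median of 0.22. Of 31 small nuclear and LSm ribonucleoproteins, chosen in the same way, 14 were higher and 2 lower. Ribosomal proteins were near 0, with 1 higher and 4 lower of 33, not above the shares of all genes (10.1% higher and 13.8% lower).

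MIR223, the host locus of the myeloid microRNA miR-223, was chosen after its values were seen. The mature strands are printed for reference, with the seed (bases 2 to 8) in capitals; they lie on chrX:66018937-66018958 and chrX:66018895-66018916 of GRCh38.p14, plus strand.
hsa-miR-223-3p: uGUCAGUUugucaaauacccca
hsa-miR-223-5p: cGUGUAUUugacaagcugaguu
Its probe set was at 7.83, 7.62, 7.83 and 7.96 in replicate 2 and at 8.81, 9.39, 9.21 and 9.13 in replicate 3, with 7.92 ± 0.08 (SD, n = 6) in untreated cells. The MIR223 values did not overlap, and replicate 2 lay at or a little below the untreated level. The array reads total RNA and cannot tell the precursor from the mature strands. CEBPA, a granulocytic factor, was higher in replicate 2 by 0.82 ± 0.14, and NFE2 by 1.17 ± 0.29 (SD, n = 4 pairs). CEBPA stands in the list of promyelocyte and progenitor genes, of which 4 of 16 were higher, 2 lower and 10 of mixed sign. GFI1, of the same list, was lower in all 4 pairs, at -0.45 ± 0.20.

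Markers of other cell types gave no list with most members of 1 sign. Of 17 monocyte and macrophage markers 3 were lower in replicate 2 and 0 higher, and their mean level above untreated cells was 0.15 to 0.29 in the replicate 2 arrays and 0.22 to 0.64 in the replicate 3 arrays. CX3CR1 (-0.76 ± 0.60), CSF1R (-0.53) and CD68 (-0.44) were the 3 lower ones. CD14 was at 6.11 to 6.43 in replicate 2 and 6.18 to 6.63 in replicate 3, and C1QA stood at percentile 33.0 of all probe sets by its mean in the 8 arrays. Of 12 eosinophil, basophil and mast cell markers 5 were higher in replicate 2 and 0 lower, with levels against untreated cells of -0.67 to -0.54 and of -0.90 to -0.76. HDC (0.55 ± 0.19), GATA2 (0.52 ± 0.19) and PRG2 (0.48 ± 0.17, SD, n = 4 pairs) were among those higher, and EPX overlapped between the replicates. Of 16 lymphocyte markers 1 was higher and 1 lower, and of 13 erythroid and megakaryocyte markers 1 was higher and 1 lower. Neither list was above the shares of all genes (10.1% higher and 13.8% lower). Of the promyelocyte granule genes, CTSG was at 7.32 to 7.75 in replicate 2 and 6.72 to 7.23 in replicate 3, PRTN3 at 12.4 to 12.61 and 12.17 to 12.32, and MPO at 12.11 to 12.38 in all 8 arrays. The part of other cells in the differences was not tested, and fewer cells of a type cannot be told apart from less RNA per cell in these samples.

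Measures of the arrays themselves also moved with the pairs. The SD of all log2 values on an array was 2.15 and 2.16 in the 48 h replicate 2 arrays against 2.22 and 2.24 in replicate 3. At 72 h it was 2.18 and 2.21 against 2.18 and 2.17. With genes in 3 equal bins by genomic length, the median difference was 0.03 over the shortest and -0.06 over the longest. In the highest of 3 bins by level it was -0.22 in the TG2 knockout pair at 48 h and 0.09 in the TG2 knockout pair at 72 h. Their part in the results was not tested.

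Untreated cells, which the choice of arrays did not use, gave the test of whether the replicate numbers differed before ATRA. limma over the 6 untreated arrays called 0 of 33297 probe sets (0%) at an adjusted p under 0.05, and 792 had an unadjusted p under 0.05. With so few arrays, 0 calls cannot show that the numbers did not differ. The labels also do not say that an untreated array and an ATRA array of the same number shared a culture. ASNS differed there by 0.01 ± 0.07 and C3 by 0.01 ± 0.07 (SE of the limma fit, 6 arrays; adjusted p = 1 for both). Over the 103 genes that were at least 2-fold lower under ATRA the median untreated difference was 0.015 and the widest 0.3, with 0 calls. Over the 34 amino acid genes the widest untreated difference was 0.22, with 0 calls and 0 at an unadjusted p under 0.05.

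The difference between replicates 2 and 3 was also fitted for dependence on genotype and on time with the 12 ATRA arrays. These fits use the arrays that were chosen because both genotypes and both times deviated together, so few calls were favoured by the choice and nothing is read from their low number. For genotype, limma called 1 of 33297 probe sets (0.003%) at an adjusted p under 0.05, and 969 had an unadjusted p under 0.05. The probe set, 7894129, has no listed gene. It was at 7.33 and 7.60 in the wild-type replicate 2 arrays and at 3.97 and 4.46 in the wild-type replicate 3 arrays, while the TG2 knockout arrays held 6.93 and 6.35 against 6.96 and 6.81. The wild-type replicate 3 arrays alone were low, and the fitted difference was -3.50 ± 0.29 (SE; limma adjusted p = 0.026). No array could be left out without losing the call.

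For time, limma called 0 probe sets (0%), with 1972 at an unadjusted p under 0.05. For ASNS the difference between genotypes was -0.20 ± 0.67 and between times 0.41 ± 0.57 (SE). For C3 they were 0.88 ± 1.13 and -0.14 ± 0.38. None of these passed the limma test, with adjusted p of 0.892 to 0.999.

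The replicate 1 arrays were not in the comparison, and they showed where a further biological replicate of each group lay. They are 1 array a group, so these positions have no error. Of the 103 genes that were at least 2-fold lower in replicate 2, the replicate 1 array was nearer to replicate 3 for 8 genes in wild-type and 17 in TG2 knockout cells at 48 h. At 72 h it was nearer to replicate 3 for 75 genes in wild-type and 98 in TG2 knockout cells. So replicate 1 was like replicate 2 at 48 h and mostly like replicate 3 at 72 h. Of the 19 genes that were higher in replicate 2, it was nearer to replicate 3 for 0, 3, 5 and 17.

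The amino acid genes did not follow that order of times. ASNS in the replicate 1 arrays was at 7.62, 7.65, 7.74 and 9.96, so that only the TG2 knockout array at 72 h was at the level of replicate 3. DDIT3 was at 7.49, 7, 7.38 and 9.04 and PHGDH at 8.01, 8.31, 7.71 and 10.05. Of the 30 members of 1 sign, the replicate 1 array was nearer to replicate 3 for 7, 9, 4 and 26. The same TG2 knockout array held HMGCS1 at 8.52 and PRDX1 at 8.64, below every replicate 3 array, while the other 3 replicate 1 arrays held 9.85 to 10.24 and 9.58 to 10.14.

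C3 and its group split by time in both genotypes. C3 in the replicate 1 arrays was at 7.10, 6.63, 9.80 and 9.41, CR1 at 6.09, 5.50, 8.42 and 7.77 and ADGRE3 at 7.19, 6.88, 9.73 and 9.44. Both 48 h arrays lay near replicate 2 and both 72 h arrays near replicate 3. Of the 22 interferon-stimulated genes of 1 sign the replicate 1 array was nearer to replicate 3 for 6, 7, 20 and 19. On the first principal component both 48 h replicate 1 arrays lay nearer to untreated cells, at 17.5 and 31.2, than ATRA arrays that reached 56.6. So did the TG2 knockout arrays of replicate 3 at 48 h, at 31.1, and of replicate 2 at 72 h, at 30.0.

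**Figure D5:**
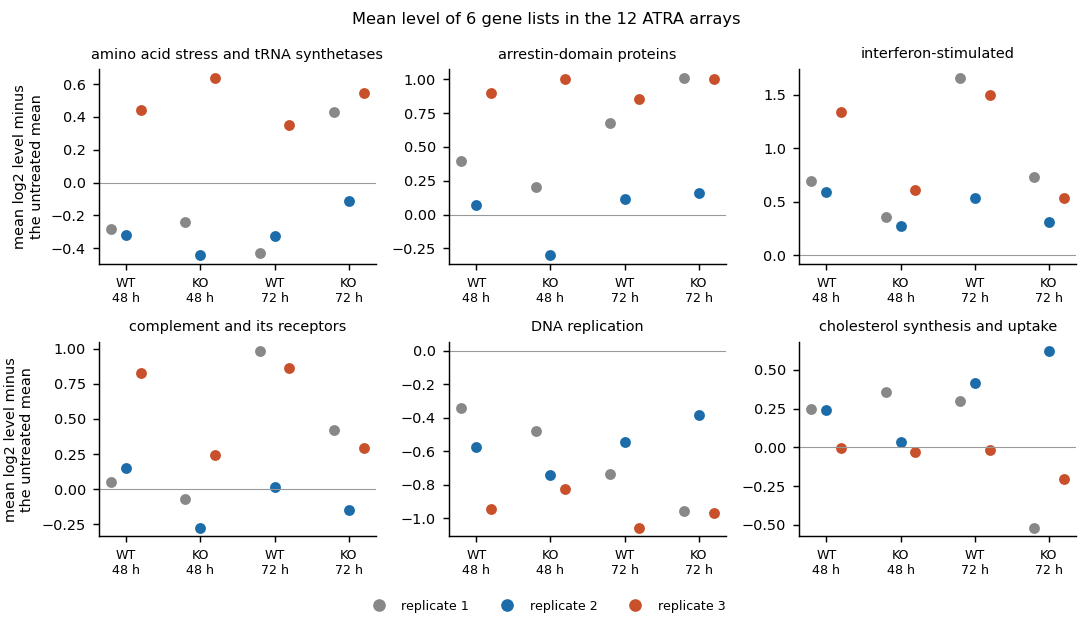
Mean log2 level of 6 gene lists minus the untreated mean in the 12 ATRA arrays, 1 point an array, coloured by replicate; the arrestin-domain and complement families were chosen after their values were seen. In the amino acid list replicate 1 lies with replicate 2 except at 0.43 in TG2 knockout cells at 72 h, and in the complement list it lies with replicate 2 at 48 h and with replicate 3 at 72 h.

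The ATRA response was tested in arrays the comparison did not use, the 4 replicate 1 ATRA arrays against the 6 untreated arrays with genotype as a covariate. The fit pooled the 48 h and 72 h arrays and held no term for time. limma called 10872 of 33297 probe sets (32.7%) higher and 8444 (25.4%) lower at an adjusted p under 0.05. Over single genes 28.1% were higher and 29.3% lower. Of the 103 genes at least 2-fold lower in replicate 2, 38 were higher with ATRA (36.9%), 19 lower (18.4%) and 46 not called. Of all 2548 genes lower in all 4 pairs, 726 were higher with ATRA (28.5%) and 904 lower (35.5%). The larger share higher with ATRA was thus seen at the 2-fold limit and not in the wider set. Of the 19 genes at least 2-fold higher in replicate 2, 1 was higher with ATRA and 14 were lower (73.7%). Of all 1858 genes higher in all 4 pairs, 445 were higher with ATRA and 779 lower (41.9%).

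Named genes fell into each class of that test. ADGRE3 rose with ATRA by 3.01 ± 0.51 (SE; limma adjusted p = 0.000463), LRRK2 by 2.13 ± 0.45 (limma adjusted p = 0.00204) and ASB2 by 2.62 ± 0.32 (limma adjusted p = 4.39e-05). PRDX1 fell by 1.16 ± 0.23 (limma adjusted p = 0.00132) and RNASE2 fell by 1.41 ± 0.24 (limma adjusted p = 0.000536). C3 and CR1, at 0.66 ± 0.55 and 0.61 ± 0.46, did not pass (limma adjusted p = 0.322 and 0.274), and their replicate 1 arrays differed between 48 h and 72 h. That difference entered the error of the pooled fit, so a lack of response is not read from it.

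The amino acid genes were not called as one. Of 34 genes 3 rose and 10 fell in the replicate 1 test, with a median of -0.14 against 0.06 over all genes. Over all genes 28.1% rose and 29.3% fell, so the amino acid genes fell about as often as all genes and rose less often. SLC7A11 fell by 1.54 ± 0.33 (limma adjusted p = 0.00228) and VLDLR, a lipoprotein receptor, rose by 1.2 ± 0.16 (limma adjusted p = 9.28e-05). ASNS, at 0.54 ± 0.38, did not pass (limma adjusted p = 0.242). Its replicate 1 arrays were at 7.62, 7.65, 7.74 and 9.96, and that spread entered the error of the pooled fit. The mean level of the list minus the untreated mean was -0.28, -0.24, -0.43 and 0.43 in the same arrays. The pooled fit thus joined arrays of opposite sign, so no lack of response is read from it for ASNS or the list. Of the interferon-stimulated genes 27 of 38 rose and 3 fell, of the DNA replication genes 3 of 32 rose and 22 fell, and of the neutrophil receptors 13 of 25 rose and 2 fell.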

How the data were processed

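RNA of 18 samples was read on 1-colour Affymetrix gene arrays from 300 ng of total RNA. The authors deposited 1 table of 33297 probe sets as processed log2 values; how they summarised and normalized the scans is not given in the sources used here. The log2 scale was taken from the range, 0.73 to 13.56. Depth does not apply to arrays, and 3 arrays a group limit the precision. Genes were named from the platform annotation: 19460 probe sets had 1 gene, 1754 several and 12083 none listed. A gene was read by its single-gene probe set of highest mean.

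Differences were averaged over 4 pairs. limma 3.58.1 in R 4.3.3 (eBayes with trend, Benjamini-Hochberg over all probe sets, tested on simulated data) fitted the untreated difference, both interactions and the ATRA response. Nothing in the labels says the replicates came from separate cultures beyond the word biological, so p-values measure the spread between these samples.

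Named genes were the 12 highest and 12 lowest mean differences among genes of 1 sign, up to 4 members of each of 38 lists by size, and TGM2. The amino acid, interferon, transporter and tRNA synthetase lists were read in full, and 9 families were added, after values were seen. The members and lists were chosen with earlier results of these data known. Alternatives changed normalization, the probe sets tested, the eBayes settings, the threshold and the arrays fitted. Sequences came from RefSeq tables.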

Additional observations from a re-analysis of the deposited data

Results flagged for a closer look

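The difference between genotypes of the replicate 2 minus 3 difference was called at 1 probe set, 7894129, which has no listed gene, at -3.50 (TG2 knockout minus wild-type, log2).

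A further 5 gene lists had medians of opposite sign in both pairs of one kind and both pairs of the other, and these differences were not tested. By time, the mean of the pair medians was 0.14 at 48 h and -0.04 at 72 h for interferon ligands, 0.08 and -0.12 for specific and gelatinase granule genes, 0.08 and -0.09 for erythroid and megakaryocyte markers, and -0.32 and 0.08 for glycolysis and hypoxia. By genotype it was -0.12 in wild-type and 0.29 in TG2 knockout cells for metallothioneins and zinc genes. Groups of 3 arrays were not screened for single deviating arrays.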

How the results depend on the processing

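The count of probe sets called between replicates 2 and 3 under ATRA, 267 in the reported fit, moved with most settings. It was 125 with array medians centred, 703 among the brighter probe sets, 1009 among probe sets of 1 gene, 17 with eBayes without trend, 17 at an adjusted p under 0.01, 1345 over all 18 arrays, 407 with no block for group, and 0 with the wild-type pairs only or the TG2 knockout pairs only, both chosen after seeing the data. Leaving out 1 pair gave 2 to 336. The quantile, robust and 12-array fits gave 345, 311 and 200. The call between genotypes went from 1 to 0 among probe sets of 1 gene, without trend, at an adjusted p under 0.01, with 8 arrays, and with each array left out (0 to 0). The untreated and time fits gave 0 throughout. The ATRA response in the replicate 1 arrays, 19316 probe sets, gave 11583 among brighter probe sets and 11603 among probe sets of 1 gene, which hold fewer tests, with 4750 higher and 6833 lower and 5802 higher and 5801 lower, against 10872 higher and 8444 lower in the reported fit. It gave 16511 with quantile normalization (8884 higher, 7627 lower) and 17667 to 19789 with 1 array left out. The median of the amino acid transporters was -0.09, and with 1 pair left out it ranged from -0.155, without the wild-type pair at 72 h, to 0.0217, without the wild-type pair at 48 h; of 376 alternative list medians 20 moved by more than their spread and 1 turned. The causes were not tested. No paired analysis was possible because the replicate number, which would pair samples across groups, is itself the contrast (replicates 2 and 3 were paired within each group instead), and in the ATRA response all treated arrays carry the number 1.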
